A study of Mus musculus with 6 samples.

Results

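Expression of 40 genes of TGF-beta, BMP, activin and AMH signalling was described in whole mouse ovaries at day 1, out of 25164 genes in the deposited table. The genes were chosen by symbol: ligands, receptors, SMAD proteins, secreted antagonists and ID target genes of the family, and all 40 had a row. Ovaries of C57BL/6 mice gave 6 libraries in 2 groups of 3. Libraries of the mutant are labelled hnRNPL flox/flox;Stra8-cre and are called cKO here, and the other 3 are labelled wild type (WT). Stra8-cre drives Cre recombinase from the promoter of a gene that germ cells use at the entry into meiosis, so the targeted cells are germ cells, while most of the genes described here are known from somatic ovarian cells as well. The labels do not say whether wild type animals carried floxed alleles, whether ovaries were pooled, or whether each library is its own animal, so p-values measure the spread between these libraries. They also mention a hormone challenge before lysis for every sample, without naming it.

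Ligands of the TGF-beta family are secreted dimers that bring type I and type II receptor kinases together at the cell surface. TGF-betas and activins act through SMAD2 and SMAD3, BMPs and AMH through SMAD1, SMAD5 and SMAD9, and SMAD4 is the shared partner. Inhibin and follistatin restrain activin, noggin and gremlin bind BMPs, and SMAD6 and SMAD7 act inside the cell as feedback inhibitors. In the ovary, AMH is known to restrain the recruitment of primordial follicles, and activin and BMP signals act between oocytes and pregranulosa cells while follicles form.

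Levels are FPKM, fragment numbers corrected for transcript length and for the mapped total of the library, so they can be compared between genes. Depth estimated from the smallest steps of FPKM was 7200000 to 12200000 fragments in the cKO libraries and 11000000 to 14300000 in the WT libraries. In the shallowest library, cKO replicate 1, 1 FPKM of a 2 kb transcript stands for about 14.4 fragments. That library also has the highest median FPKM of the tested genes, 8.4 against 6.85 to 7.09 in the other 5. Its FPKM over all genes summed to 335667, against 223845 to 246121 in the other 5, and TPM rescaling divides by that sum. Values are therefore also given after median-of-ratios scaling (division by a library factor that brings its typical gene to the mean of the libraries). Over all tested genes the median log2 fold change was -0.002 with scaling, against 0.077 without it. Hnrnpl, the targeted gene, averaged 89.1 ± 10.1 FPKM in cKO and 99.9 ± 5.47 FPKM in WT (SD, n = 3; limma adjusted p = 0.571), with overlapping groups. After scaling, the cKO libraries stood at 85.4, 84.2 and 87.6 and the WT libraries at 106, 95.6 and 108, without overlap and without a call (log2 fold change -0.26, limma adjusted p = 0.146). Ovarian markers matched the labelled tissue, with no pregranulosa marker at 0 in any library. Germ cell markers summed to 160.1 to 274.7 FPKM in cKO and 113.5 to 124.9 FPKM in WT. Of these markers 6 of 7 had positive log2 fold changes, as did 65.2% of all tested genes. The exception was Ddx4, a general germ cell marker, at 4.8 ± 1.55 FPKM in cKO and 4.97 ± 0.638 FPKM in WT with overlap. Mael, with a positive log2 fold change, also overlapped, at 29.8, 19.4 and 12.5 FPKM in cKO and 12.6, 13.1 and 11.7 FPKM in WT. Stroma markers (9 of 9 negative) summed to 799.4 to 878.9 FPKM in cKO and 1042.5 to 1090.8 FPKM in WT. Endothelial markers (7 of 7 negative) summed to 62.2 to 77.1 FPKM in cKO and 77.8 to 97.1 FPKM in WT. Smooth muscle and pericyte markers (6 of 6 negative) summed to 30.5 to 36.5 FPKM in cKO and 43.2 to 46.6 FPKM in WT, and surface epithelium markers (7 of 7 negative) to 139.6 to 218.5 FPKM in cKO and 225.9 to 246.9 FPKM in WT. Pregranulosa markers other than the genes described here (4 of 7 positive) summed to 291.7 to 351.6 FPKM in cKO and 305.3 to 317.5 FPKM in WT. Erythroid markers (4 of 5 tested negative) summed to 462.6 to 533.9 FPKM in cKO and 771.7 to 836.2 FPKM in WT; globin genes have near-identical copies, so their single values are uncertain. Markers of testis supporting cells summed to 6.32 to 9.05 FPKM in cKO and 5.63 to 6.93 FPKM in WT, and among them Dmrt1, which germ cells also use, was not tested, at 2.21, 1.39 and 1.03 FPKM in cKO and 0.0673, 0 and 0 FPKM in WT. Macrophage markers summed to 7.73 to 9.7 FPKM in cKO and 9.14 to 11.3 FPKM in WT. Theca and steroidogenic markers (1 of 3 tested positive) summed to 59.0 to 76.2 FPKM in cKO and 60.6 to 72.2 FPKM in WT. Most of that sum was Hsd3b1, at 59.6 FPKM in cKO and 61.3 FPKM in WT. The positive one, Cyp11a1, averaged 2.78 FPKM in cKO and 1.74 FPKM in WT without overlap and without a call (limma adjusted p = 0.19). Of all tested markers only 1 was called, in the surface epithelium list. In whole tissue, fewer cells of a type and less RNA per cell cannot be told apart. The part of these marker differences in the results below was not tested.

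The family was present at levels that ranged widely. Smad3, the signal carrier of TGF-beta and activin, had the highest mean over all 6 libraries at 88.1 FPKM, followed by Amhr2, the AMH receptor, at 82.2 FPKM and Id3 at 59.6 FPKM. Smad3 and Amhr2 both exceeded Id3 in 6 of 6 libraries, while Smad3 exceeded Amhr2 in 5 of 6, so the order of the first pair is not resolved. In all, 3 members averaged above 50 FPKM, 16 between 10 and 50, 16 between 1 and 10 and 5 under 1 FPKM. Of the 39 neighbouring pairs in the order of means, 38 had overlapping ranges; the exception was the step between Ltbp1 and Smad7. In 13 pairs the order was the same in each of the 6 libraries. The 5 members under 1 FPKM, Smad9, Inhba, Nog, Bmp5 and Grem1, were left out of the test by the filter on low values.

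**Figure D1:**
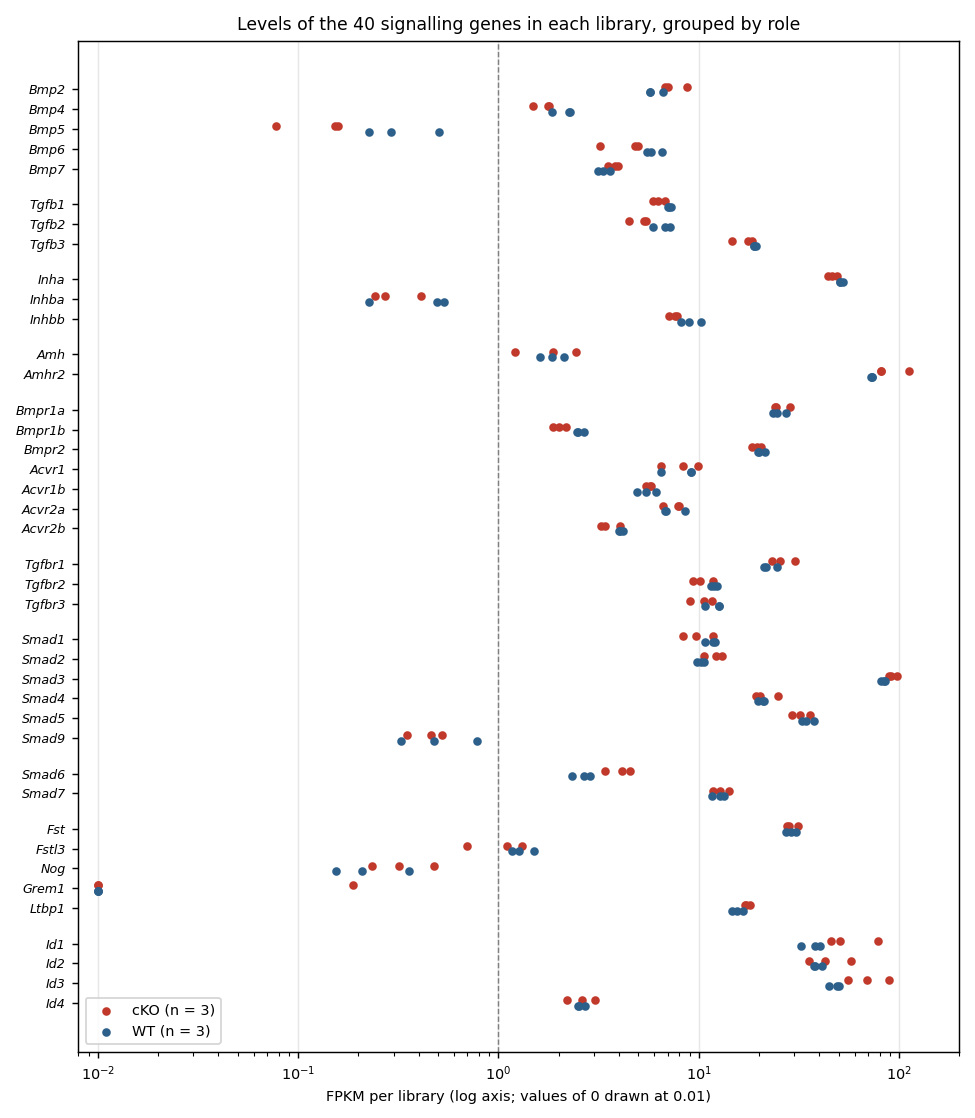
FPKM in each library (points; log axis, values of 0 drawn at 0.01) for the 40 genes grouped by role, cKO in red and WT in blue, 3 libraries each; the dashed line marks the filter of 1 FPKM, which applies to the mean. Smad3, Amhr2 and Id3 lie furthest right, and Smad9, Inhba, Nog, Bmp5 and Grem1 lie left of the line.

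None of the 35 tested members passed the comparison of cKO with WT (limma, adjusted p under 0.05 over 12442 genes), against 0.121% of all tested genes. After median-of-ratios scaling 0 of 35 passed as well, against 1.29% of all genes. At an unadjusted limma p under 0.05 there were 6 members without scaling, 17.1% of those tested against 14.2% of all genes. Smad6, Id3, Id1 and Bmp2 were higher and Tgfb2 and Bmp6 lower in cKO. After scaling 13 members lay under that threshold (37.1%, against 19.0% of all genes), 4 higher and 9 lower in cKO. Without scaling, the cKO and WT values did not overlap in 15 members (42.9%), against 22.6% of all tested genes. Of these, 7 lay higher in cKO (15.5% of all genes did) and 8 lower (7.03% of all genes). After scaling 19 members did not overlap (54.3%, against 25.6% of all genes), 6 higher (12.4% of all genes) and 13 lower (13.2%), and 13 members were apart in the same direction both with and without scaling. In 6 of the 7 that lay higher without scaling, cKO replicate 1 had the highest cKO value. The members had a median log2 fold change of 0.00 and all tested genes one of 0.077; after scaling these were -0.087 and -0.002. On the log2(FPKM + 1) scale the 95% interval lay inside a 2-fold difference for 34 of 35 members, with Id1 the exception. It lay inside a 1.5-fold difference for 28. For low genes the same interval spans a larger change in FPKM, so these counts do not exclude 2-fold or 1.5-fold changes in FPKM there. The intervals are not adjusted for the number of genes.

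**Figure D2:**
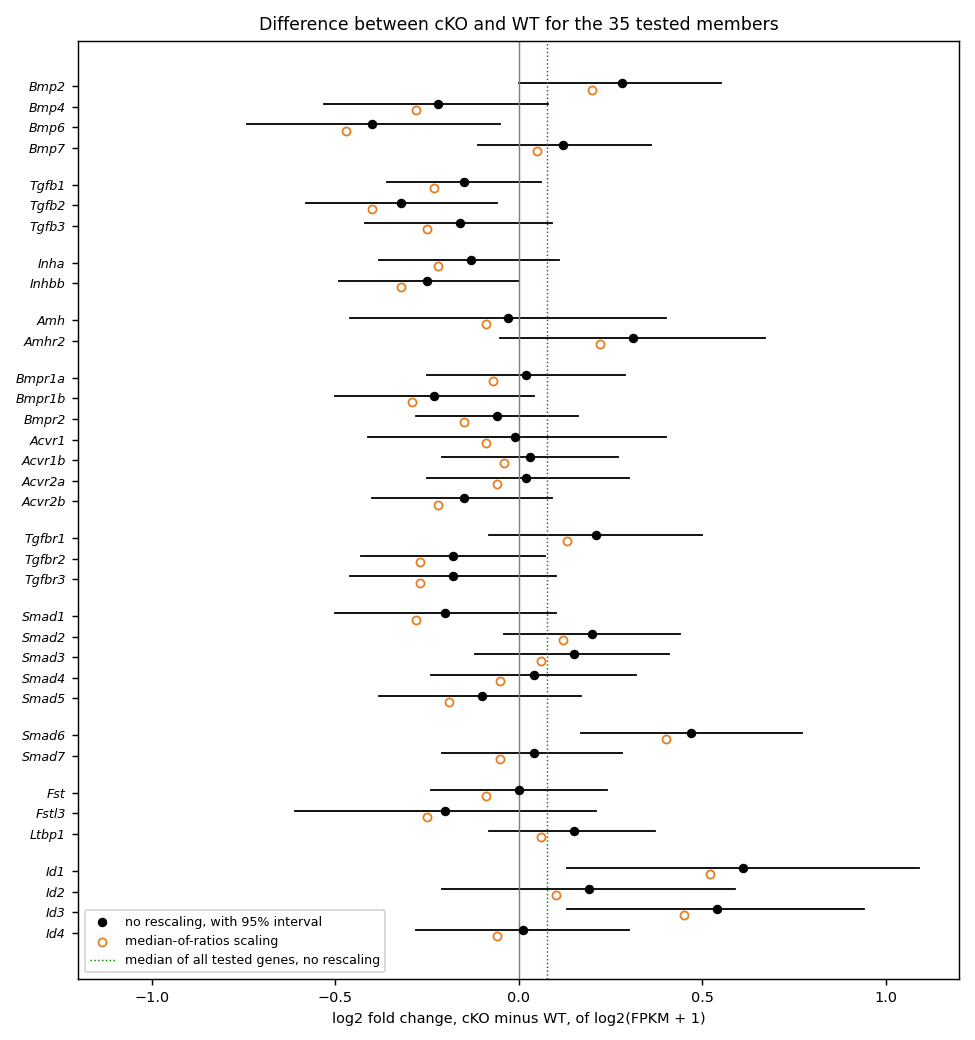
Log2 fold change of cKO minus WT on the log2(FPKM + 1) scale for the 35 tested members by role, without rescaling (black points, bars are 95% intervals from limma) and after median-of-ratios scaling (open circles); the dotted line is the median of all tested genes. Id1, Id3 and Smad6 lie furthest right, and Bmp6 and Tgfb2 furthest left.

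**Figure D3:**
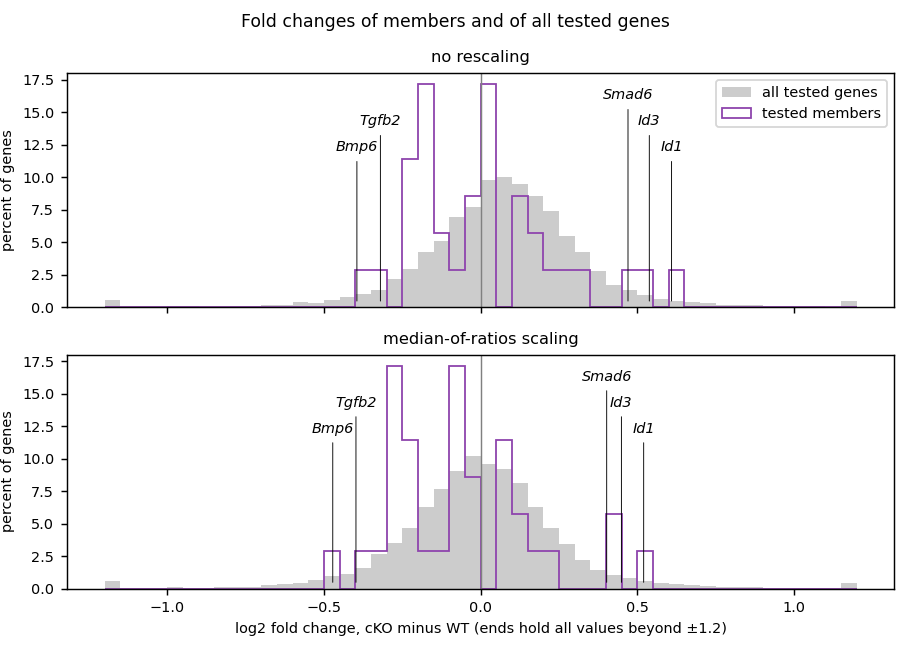
Percent of genes by log2 fold change (cKO minus WT) in all tested genes (grey) and in the 35 tested members (purple outline), without rescaling above and after median-of-ratios scaling below. The median of the members, 0.00 above and -0.087 below, lies left of that of all genes, 0.077 and -0.002.

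The 3 TGF-beta ligand genes had lower values in every cKO library than in any WT library. Tgfb2, a ligand with roles in organ development, stood at 5.48, 4.47 and 5.35 FPKM in cKO replicates 1, 2 and 3, against 7.16, 5.92 and 6.76 FPKM in WT replicates 1, 2 and 3. The difference did not pass (log2 fold change -0.32, SE 0.11, limma adjusted p = 0.279; exact two-sided permutation p = 0.1, the smallest that 3 against 3 libraries allow, as for every member whose groups do not overlap). Tgfb1, the ligand best known for immune regulation and matrix production, had 6.31 ± 0.423 FPKM in cKO and 7.12 ± 0.102 FPKM in WT (SD, n = 3; limma adjusted p = 0.469). Tgfb3 was the most abundant of the 3, at 16.9 ± 2.0 FPKM in cKO and 19.0 ± 0.191 FPKM in WT (limma adjusted p = 0.523). The separation held after scaling for all 3, with log2 fold changes of -0.40 for Tgfb2, -0.23 for Tgfb1 and -0.25 for Tgfb3, and none passed the test. The summed stroma, endothelial, pericyte, surface epithelium and erythroid markers, given above, were also lower in cKO, and their part in these values was not tested.

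Among BMP ligands, Bmp2 and Bmp6 lay on opposite sides of WT. Bmp2, known in the embryonic ovary as a pregranulosa signal, stood at 8.75, 7.04 and 6.82 FPKM in cKO, against 5.70, 5.72 and 6.61 FPKM in WT (log2 fold change 0.28, SE 0.12, limma adjusted p = 0.347). All cKO values lay above all WT values, by a narrow margin at WT replicate 3. The log2 fold change was 0.18 without cKO replicate 1 and 0.11 with TPM rescaling. Bmp6, made by oocytes as well as somatic cells, stood at 5.0, 3.22 and 4.78 FPKM in cKO, against 5.49, 5.79 and 6.57 FPKM in WT (log2 fold change -0.40, SE 0.15, limma adjusted p = 0.305). The groups did not overlap, and cKO replicate 2 was the lowest. Without that library the log2 fold change was -0.24, and with TPM rescaling -0.65. TPM rescaling also moved the median of all tested genes, from 0.077 over 12442 genes to -0.125 over 15166. The filter and pseudocount of 1 were then applied to TPM, so these shifts mix rescaling with that change. In the annotation an exon of Bmp6 shares 224 bp with Txndc5 on the opposite strand (55.5 FPKM in cKO, 59.1 FPKM in WT), and whether counting used strand was not given in the sources used here. Bmp4, which is needed for the formation of germ cells in the embryo, averaged 1.68 ± 0.167 FPKM in cKO and 2.13 ± 0.241 FPKM in WT without overlap (limma adjusted p = 0.467). Its values rest on about 26 to 39 fragments per cKO library and 42 to 67 per WT library. Bmp7, a theca ligand in the adult rat ovary, averaged 3.76 ± 0.211 FPKM in cKO and 3.37 ± 0.234 FPKM in WT (limma adjusted p = 0.591). Bmp5 was not tested: it had 0.153, 0.0773 and 0.159 FPKM in cKO and 0.290, 0.503 and 0.226 FPKM in WT, about 3 to 7 fragments per cKO library and 9 to 26 per WT library.

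The inhibin and activin subunit genes differed in level far more than between genotypes. Inha, the alpha subunit found only in inhibin, stood at 49.2, 46.3 and 44.3 FPKM in cKO, against 50.6, 52.4 and 50.7 FPKM in WT (log2 fold change -0.13, SE 0.10, limma adjusted p = 0.561). Inhbb, the beta B subunit of activin B and inhibin B, stood at 7.14, 7.78 and 7.64 FPKM in cKO, against 10.3, 8.15 and 8.95 FPKM in WT (log2 fold change -0.25, SE 0.11, limma adjusted p = 0.358). Neither gene's groups overlapped, with cKO lower in both. The log2 fold change of Inhbb was -0.16 without WT replicate 1, and that of Inha was -0.22 after median-of-ratios scaling. Inhba, the beta A subunit, was not tested and had 0.272, 0.412 and 0.241 FPKM in cKO and 0.493, 0.226 and 0.535 FPKM in WT, with overlapping groups. The level of Inhbb was 16.7 to 36.1 times that of Inhba over the 6 libraries.

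Amhr2 is the type II receptor that binds AMH alone, and it was far more abundant than its ligand. It stood at 112, 80.9 and 81.5 FPKM in cKO, against 73.0, 72.2 and 73.2 FPKM in WT (log2 fold change 0.31, SE 0.16, limma adjusted p = 0.410). The groups did not overlap and cKO replicate 1 was the highest; without that library the log2 fold change was 0.16 (limma adjusted p = 0.277). Scaled values were 95.5, 83.6 and 83.8 in cKO, against 74.0, 73.6 and 77.2 in WT. The pregranulosa markers did not lie to one side: Foxl2 averaged 73.8 FPKM in cKO and 59.2 FPKM in WT and Kitl 71.3 FPKM in cKO and 55.1 FPKM in WT, whereas Lhx9 averaged 10.2 FPKM in cKO and 15.8 FPKM in WT and Wt1 91.7 FPKM in cKO and 109 FPKM in WT. These 4 genes did not overlap between the groups, the other 3 of the list and the summed list did, and the part of these markers in the values of Amhr2 was not tested. Amh had 2.45, 1.21 and 1.88 FPKM in cKO and 1.86, 1.62 and 2.12 FPKM in WT (log2 fold change -0.03, SE 0.19, limma adjusted p = 0.953). These values rest on about 22 to 38 fragments per cKO library and 37 to 44 per WT library, and the 95% interval of the difference ran from -0.46 to 0.40 (log2). Amhr2 lies on chromosome 15 from 102445002 to 102454640 and Amh on chromosome 10 from 80805240 to 80807679 (GRCm38).

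Among receptors of BMP and activin, 6 of 7 had overlapping groups. Bmpr1b, a type I BMP receptor of ovarian follicles, was the exception, at 1.87, 2.01 and 2.18 FPKM in cKO against 2.46, 2.66 and 2.49 FPKM in WT (log2 fold change -0.23, SE 0.12, limma adjusted p = 0.414). Its relative Bmpr1a had 25.6 ± 2.72 FPKM in cKO and 25.2 ± 2.04 FPKM in WT (log2 fold change 0.02, 95% interval -0.25 to 0.29). Bmpr2, the type II BMP receptor, averaged 19.5 ± 0.935 FPKM in cKO and 20.3 ± 0.933 FPKM in WT. The remaining receptor genes, Acvr1, Acvr1b, Acvr2a and Acvr2b, averaged 8.23, 5.64, 7.5 and 3.58 FPKM in cKO, in the order named. In WT they averaged 8.25, 5.51, 7.39 and 4.08 FPKM, with limma adjusted p from 0.528 for Acvr2b to 0.988 for Acvr1. An exon of Acvr2a shares 446 bp with Orc4 on the opposite strand.

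Tgfbr1 and Tgfbr2, which encode the kinases that bind TGF-beta together, did not pass the test and both overlapped between the groups. Tgfbr1, the type I kinase, stood at 30.1, 23.3 and 25.5 FPKM in cKO, against 21.7, 24.5 and 21.2 FPKM in WT, with overlapping groups (log2 fold change 0.21, SE 0.12, limma adjusted p = 0.463). Its log2 fold change was 0.11 without cKO replicate 1 and 0.01 with TPM rescaling, which also lowered the median of all tested genes. Tgfbr2, the type II kinase, stood at 11.8, 9.33 and 10.1 FPKM in cKO, against 12.4, 11.9 and 11.5 FPKM in WT (log2 fold change -0.18, SE 0.11, limma adjusted p = 0.463). Its groups overlapped as deposited but not after scaling, with 9.99, 9.64 and 10.4 in cKO against 12.5, 12.2 and 12.1 in WT (log2 fold change -0.27, limma adjusted p = 0.112). Tgfbr3, the co-receptor betaglycan that also binds inhibin, averaged 10.4 ± 1.30 FPKM in cKO and 11.9 ± 1.07 FPKM in WT (limma adjusted p = 0.508). Its groups also overlapped as deposited but not after scaling (log2 fold change -0.27, limma adjusted p = 0.173).

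Among the SMADs that carry the signal, Smad3 had the highest level and did not overlap between groups, at 97.5, 89.2 and 91.3 FPKM in cKO and 81.5, 84.8 and 84.4 FPKM in WT (log2 fold change 0.15, limma adjusted p = 0.565). After scaling the groups of Smad3 overlapped and the log2 fold change was 0.06; in cKO replicate 1 the scaled value was 82.8. Smad2, the other carrier for TGF-beta and activin, stood at 13.0, 12.2 and 10.6 FPKM in cKO, against 9.79, 10.6 and 10.3 FPKM in WT (log2 fold change 0.20, SE 0.10, limma adjusted p = 0.425). Its groups overlapped as deposited and lay apart by a narrow margin after scaling (log2 fold change 0.12, limma adjusted p = 0.492). The BMP carriers Smad1 and Smad5 averaged 9.97 ± 1.71 and 32.5 ± 3.45 FPKM in cKO and 11.5 ± 0.688 and 34.9 ± 2.43 FPKM in WT (limma adjusted p = 0.501 and 0.708). After scaling both were lower in cKO without overlap, with log2 fold changes of -0.28 and -0.19 (limma adjusted p = 0.156 and 0.237). Smad9, the third BMP carrier, averaged 0.447 FPKM in cKO and 0.528 FPKM in WT and was not tested. Smad4, the shared partner, averaged 21.4 ± 3.01 FPKM in cKO and 20.7 ± 0.774 FPKM in WT (limma adjusted p = 0.890).

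Of the inhibitory SMADs, Smad6 had the smallest p of all members. Smad6, which blocks mainly BMP signalling inside the cell, stood at 4.15, 3.39 and 4.56 FPKM in cKO, against 2.87, 2.68 and 2.32 FPKM in WT. Every cKO library lay above every WT library, and the difference did not pass the test (log2 fold change 0.47, SE 0.13, limma adjusted p = 0.20, and from 0.115 to 0.532 over the alternatives). Without cKO replicate 1 the log2 fold change was 0.45. Smad7, which blocks the TGF-beta branch as well, had 12.9 ± 1.18 FPKM in cKO and 12.6 ± 0.871 FPKM in WT (log2 fold change 0.04, limma adjusted p = 0.885), and its sign was not kept under scaling. Smad6 lies on chromosome 9 from 63953076 to 64022085.

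The ID genes encode small proteins that bind and disable bHLH transcription factors, and Id1, Id2 and Id3 are classical BMP target genes. Id1 stood at 78.5, 50.7 and 45.5 FPKM in cKO, against 37.9, 32.4 and 40.5 FPKM in WT (log2 fold change 0.61, SE 0.21, limma adjusted p = 0.264, and from 0.0840 to 0.565 over the alternatives). Id3 stood at 88.8, 69.4 and 55.6 FPKM in cKO, against 49.2, 49.9 and 44.9 FPKM in WT (log2 fold change 0.54, SE 0.17, limma adjusted p = 0.247, and from 0.0634 to 0.609). Neither gene's groups overlapped, and cKO replicate 1 was the highest in both. Without that library the log2 fold changes were 0.38 for Id1 and 0.37 for Id3 (limma adjusted p = 0.176 and 0.179). After scaling, Id1 stood at 66.7, 52.4 and 46.8 in cKO and 38.4, 33.0 and 42.7 in WT, and Id3 at 75.5, 71.7 and 57.2 in cKO and 49.8, 50.8 and 47.3 in WT, with no overlap and no call (limma adjusted p = 0.114 and 0.0937). The longest transcripts of Id1 and Id3 have 1160 and 1278 bases, and after correction for length and GC content the genes had log2 fold changes of 0.48 and 0.41 (limma adjusted p = 0.0860 and 0.0646). Id2 had 57.6, 35.7 and 42.7 FPKM in cKO and 38.0, 41.4 and 37.6 FPKM in WT with overlap (log2 fold change 0.19, limma adjusted p = 0.630). Id4 had 2.62 ± 0.409 FPKM in cKO and 2.58 ± 0.113 FPKM in WT (limma adjusted p = 0.972). Id1 lies on chromosome 2 from 152736251 to 152737410 and Id3 on chromosome 4 from 136143822 to 136145392. The summed germ cell markers were higher, though Ddx4 and Mael overlapped between the groups, and the summed stroma markers lower in the same cKO libraries, as given above. Their part in the ID values was not tested.

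**Figure D4:**
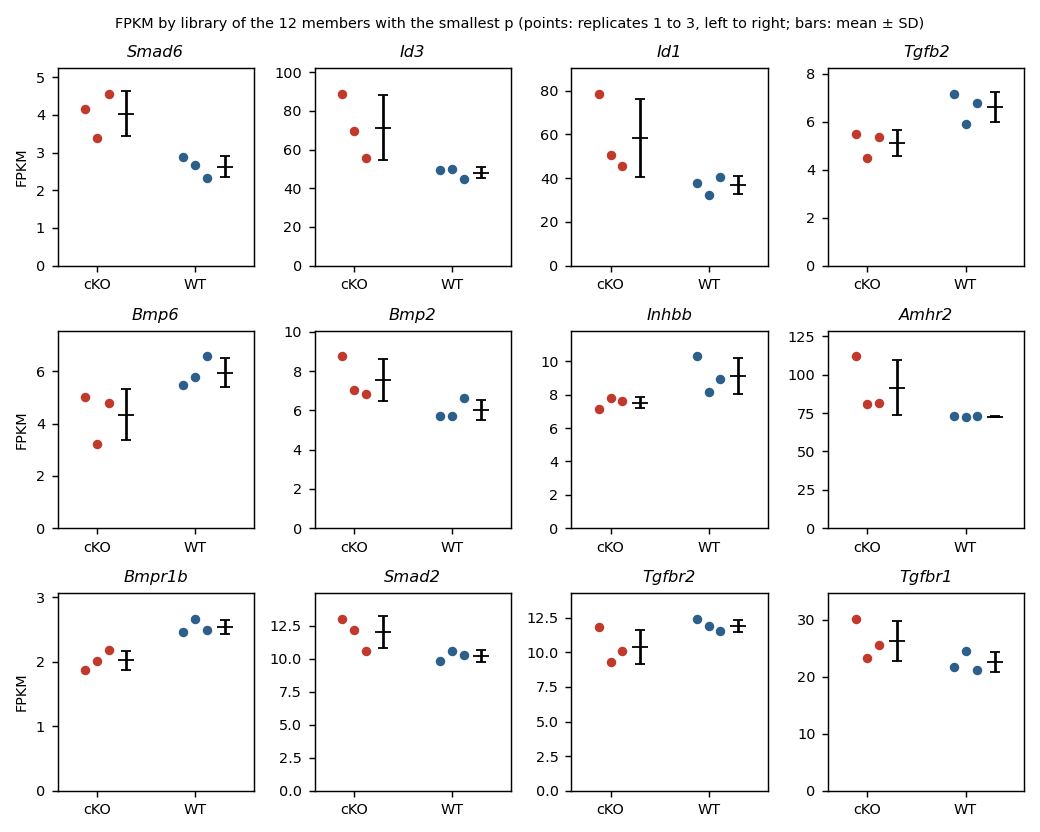
FPKM by library for the 12 members with the smallest limma p, in order of p, with cKO (red) left and WT (blue) right, replicates 1 to 3 from left to right, and mean ± SD (n = 3) as black bars; each axis starts at 0. In Smad6, Id3, Id1, Bmp2 and Amhr2 the 3 cKO points lie above the WT points, and in Tgfb2, Bmp6, Inhbb and Bmpr1b below them.

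The sequences before the start sites of the ID genes and of Smad6 are shown because SMAD proteins are known to act on these genes, and because Id3 and Smad6 lay apart between the groups while Id2 and Id4 did not. RefSeq windows (GRCm38.p6) were matched for 29 of the 40 members, and Id1 had no entry. Each run holds the 250 bases before a RefSeq transcript start on the gene's strand; the RefSeq gene of Smad6 begins further upstream, so the last 26 bases of its run lie inside the gene. Capitals mark GTCT and GGCGCC, letters bound by SMAD proteins in known target genes, searched on both strands; the motifs do not overlap each other here. The windows are chr4:136143572-136143821 (plus strand) for Id3, chr9:64022060-64022309 (minus strand) for Smad6, chr12:25096093-25096342 (minus strand) for Id2 and chr13:48260866-48261115 (plus strand) for Id4.
Id3: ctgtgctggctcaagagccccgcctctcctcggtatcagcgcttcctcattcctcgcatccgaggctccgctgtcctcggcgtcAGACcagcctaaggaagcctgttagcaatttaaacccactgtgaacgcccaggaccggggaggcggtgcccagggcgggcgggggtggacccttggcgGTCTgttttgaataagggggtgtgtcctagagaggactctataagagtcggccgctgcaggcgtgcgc
Smad6: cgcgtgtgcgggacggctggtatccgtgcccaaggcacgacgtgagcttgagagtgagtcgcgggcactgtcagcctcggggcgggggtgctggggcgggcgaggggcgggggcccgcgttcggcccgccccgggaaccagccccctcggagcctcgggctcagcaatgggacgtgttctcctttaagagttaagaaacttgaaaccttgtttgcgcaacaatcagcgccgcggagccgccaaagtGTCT
Id2: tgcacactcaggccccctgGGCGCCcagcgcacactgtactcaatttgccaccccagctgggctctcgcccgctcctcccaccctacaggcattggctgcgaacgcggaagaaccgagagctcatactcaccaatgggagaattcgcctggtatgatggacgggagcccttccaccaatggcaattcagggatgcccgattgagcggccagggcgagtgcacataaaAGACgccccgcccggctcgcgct
Id4: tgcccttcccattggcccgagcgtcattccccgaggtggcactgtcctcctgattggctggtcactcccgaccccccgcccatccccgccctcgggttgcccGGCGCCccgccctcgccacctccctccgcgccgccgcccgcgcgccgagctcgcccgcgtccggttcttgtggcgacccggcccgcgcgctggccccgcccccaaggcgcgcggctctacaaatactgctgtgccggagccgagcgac
The Id3 window held 2 matches to GTCT or its reverse complement AGAC and 0 to GGCGCC. The Smad6 window held 1 and 0, with its match among the 26 bases inside the gene. The Id2 window held 1 of each, and the Id4 window 0 and 1. Of all 27025 genes with a window, 85.0% held GTCT and 10.8% GGCGCC. Of the 29 matched members, 25 (86.2%) and 8 (27.6%) did. GGCGCC holds only G and C, and the GC content of the windows shown was 62.8% (Id3 and Id2), 66.8% (Smad6) and 75.6% (Id4). The 27025 genes were not matched to the members on GC content, and the difference between the shares was not tested. A match describes letters only and is no evidence of binding. Bases outside these windows were not searched, so the counts do not describe all SMAD sites of these genes.

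Among secreted antagonists, Fst had the same mean in both groups to the digits given, 29.0 FPKM. Fst, whose product follistatin neutralises activin and which marks pregranulosa cells, had 31.2, 28.2 and 27.6 FPKM in cKO and 27.4, 30.5 and 29.0 FPKM in WT (log2 fold change 0.00, SE 0.10, limma adjusted p = 0.999). The 95% interval ran from -0.24 to 0.24 (log2). Fstl3, a relative of follistatin, averaged 1.03 ± 0.312 FPKM in cKO and 1.32 ± 0.172 FPKM in WT (limma adjusted p = 0.616). Its groups overlapped as deposited but not after scaling (log2 fold change -0.25, limma adjusted p = 0.46). Ltbp1, which stores latent TGF-beta in the matrix, averaged 17.4 ± 0.561 FPKM in cKO and 15.7 ± 1.02 FPKM in WT without overlap (log2 fold change 0.15, limma adjusted p = 0.509); the groups overlapped after scaling. The BMP antagonists Nog and Grem1 were not tested. Nog averaged 0.344 FPKM in cKO and 0.241 FPKM in WT, and Grem1 was listed at 0 in 5 libraries and at 0.189 FPKM in cKO replicate 2, about 8 fragments.

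Of 88 further symbols of the pathway 87 were found and 62 tested, and 0 of them passed (limma). At an unadjusted limma p under 0.05, 4 were higher and 8 lower in cKO, 19.4% against 14.2% of all tested genes. After median-of-ratios scaling 4 were higher and 17 lower at that threshold, 33.9% against 19.0% of all tested genes. Gdf9, an oocyte growth factor of the family, had the smallest p: it stood at 2.81, 2.50 and 2.52 FPKM in cKO against 7.03, 5.50 and 4.10 FPKM in WT (log2 fold change -0.83, SE 0.17, limma adjusted p = 0.114). Msx1, a homeobox gene and BMP target that acts at meiotic entry in the mouse ovary, stood at 7.32, 5.27 and 5.52 FPKM in cKO against 3.92, 3.34 and 3.40 FPKM in WT (log2 fold change 0.62, SE 0.13, limma adjusted p = 0.133). After median-of-ratios scaling Gdf9 and Msx1 were the 2 that passed (limma adjusted p = 0.0383 and 0.0431), against 1.29% of all genes. With the same scaling and without cKO replicate 1 neither passed (limma adjusted p = 0.0939 for both). The next 4 by p were lower in cKO without overlap. Pcsk5, a convertase that cleaves ligand precursors, averaged 3.71 ± 0.279 FPKM in cKO and 5.17 ± 0.394 FPKM in WT, and Itgb8, an integrin subunit that activates latent TGF-beta, 4.59 ± 0.142 FPKM in cKO and 6.34 ± 0.843 FPKM in WT. Ltbp4, a latent TGF-beta binding protein of the matrix, averaged 49.2 ± 1.30 FPKM in cKO and 63.6 ± 3.97 FPKM in WT, and Gata2, a transcription factor, 3.12 ± 0.407 FPKM in cKO and 4.29 ± 0.360 FPKM in WT (limma adjusted p from 0.189 for Pcsk5 to 0.247 for Gata2).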

How the data were processed

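The authors deposited 1 table of FPKM values with 6 columns, each matched to 1 sample title. Per the submitters' processing notes, mm10, STAR 2.7.11a, HISAT2 2.2.1 and featureCounts 2.0.6 were used, without their roles; the program behind FPKM, the annotation and the handling of strand are not given in the sources used here. The name of the deposited table refers to duplicate removal, with no method given. FPKM depends on the most abundant transcripts of a library, hence the scaled alternatives.

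Genes averaging 1 FPKM or more were tested on log2(FPKM + 1), so fold changes of low genes are understated, with limma 3.58.1 in R 4.3.3 (intensity trend, two-sided, Benjamini-Hochberg over all 12442 genes, called under 0.05). The steps were tested on simulated libraries as a check of the procedure only. No power to call changes of the size seen here was taken from that check. Depth came from the smallest FPKM steps of 2437 single-transcript genes 1500 bp or longer, with fragments taken as 200 bp. Intervals cover the spread between libraries. Full values are given for the 12 members with the smallest p and for Amh, Amhr2, Inha, Inhba, Inhbb and Fst. They are also given for the 6 further pathway genes with the smallest p. Foxl2, Kitl, Lhx9, Wt1, Dmrt1, Ddx4, Mael, Hsd3b1 and Cyp11a1 were named after their values were seen. Members and lists were chosen with earlier results of these data known. Alternatives used another pseudocount (0.1 FPKM), no filter or one at 5 FPKM, median-of-ratios, quantile or TPM scaling, no trend, weights for libraries, the replicate number as a block, or 5 of the 6 libraries. A correction for length and GC content (GENCODE M21, 12194 genes with values) and scaling without cKO replicate 1 were chosen after seeing the data. With TPM rescaling the pseudocount and filter of 1 were applied to TPM, so 15166 genes and 38 members were tested. Coordinates are RefSeq's (GRCm38, the build of mm10).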

Additional observations from a re-analysis of the deposited data

How the results depend on the processing

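The count of members called stayed at 0 under all 17 alternatives, and the count of members without overlap ranged from 12 of 27 with a filter at 5 FPKM (23.4% of all genes) to 22 of 35 with scaling and without cKO replicate 1 (35.7% of all genes). Of the 35 tested members, 22 kept the sign of their log2 fold change in every fit, and so did 13 of the 15 without overlap; Smad3 and Ltbp1 did not. Fst, at 0.00, became -0.09 with median-of-ratios scaling, -0.12 with quantile normalization, -0.21 with TPM rescaling, -0.11 with the length and GC correction, -0.03 with library weights and -0.05 with scaling and without cKO replicate 1, and ran from -0.05 to 0.04 when a library was left out. Amh, at -0.03, was -0.24 with TPM rescaling, -0.24 with the length and GC correction and -0.18 with library weights, and ran from -0.18 to 0.14 when a library was left out. In the 15 tested members given in full, TPM rescaling (pseudocount 1 TPM) moved 13 log2 fold changes by over 1.5 times. Leaving out cKO replicate 1 moved 7. None of these values of Fst and Amh passed.

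The median log2 fold change of the members, 0.00, was -0.087 with median-of-ratios scaling, -0.094 with quantile normalization, -0.207 with TPM rescaling, -0.07 with the length and GC correction and -0.064 with library weights, and ran from -0.067 to 0.019 when a library was left out; it was -0.065 with scaling and without cKO replicate 1. The median of all genes moved with it under scaling, for example to -0.125 with TPM rescaling, which tested 15166 genes and 38 members. Of the further pathway genes 2 were called with median-of-ratios scaling (Gdf9, Msx1), 4 with quantile normalization (also Htra1 and Tgfbi), 2 with TPM rescaling (Gdf9, Tgfbi) and 4 with the length and GC correction (Gdf9, Msx1, Dcn, Ltbp4). The calls over all genes, 15, numbered 34 with a pseudocount of 0.1, 5 without a filter, 23 with a filter at 5 FPKM, 161, 236 and 124 with median-of-ratios, quantile and TPM scaling, 5 without a trend, 261 with the length and GC correction, 172 with library weights, 2 to 89 when a library was left out and 95 with scaling and without cKO replicate 1; the cause was not tested. With the replicate block they numbered 2 and no member was called. The correlations of deviations across genes were small for same-numbered libraries, at -0.011, 0.039 and 0.068. The cKO replicates 2 and 3 each correlated best with the WT library of the same number, and cKO replicate 1 with WT replicate 2 (0.028). Values this small cannot settle whether the libraries are paired, and the labels name no pairs, so the numbers are not taken as pairs. Depth limits Amh, Bmp4, Fstl3 and the 5 members under 1 FPKM most.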

Other observations

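Ratios of levels within a library do not depend on the scaling between libraries. The cKO and WT values of 9 of 17 ratios chosen by name did not overlap (52.9%), a share near that of all 595 pairs of the tested members (42.0%). The ratios were chosen after values were seen and are given without a test. Tgfbr1 over Tgfbr2, the pair of TGF-beta receptor kinases, was 2.56, 2.50 and 2.52 in cKO replicates 1, 2 and 3, against 1.76, 2.05 and 1.85 in WT. Smad6 over Smad7, the inhibitory SMADs, was 0.350, 0.265 and 0.321 in cKO and 0.215, 0.211 and 0.199 in WT. Amhr2 over Fst, which both mark pregranulosa cells, was 2.87 to 3.60 in cKO and 2.37 to 2.67 in WT. Bmpr1a over Bmpr1b was 11 to 15.3 in cKO and 9.41 to 10.3 in WT, Tgfb3 over Tgfb2 3.24 to 3.44 in cKO and 2.68 to 3.18 in WT, Bmp2 over Bmp4 3.96 to 4.94 in cKO and 2.51 to 3.57 in WT, and Id1 over Id4 17.3 to 26.0 in cKO and 12.9 to 16.1 in WT. Id3 over Id2 was 1.30 to 1.94 in cKO and 1.19 to 1.29 in WT, apart by a margin far smaller than the spread within cKO. Bmp2 over Bmp6, at 1.43 to 2.18 in cKO and 0.989 to 1.04 in WT, had to separate, since Bmp2 was higher and Bmp6 lower in every cKO library; the same holds for Bmp2 over Bmp4.

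The other 8 ratios overlapped. Inhbb over Inha was 0.145 to 0.173 in cKO and 0.156 to 0.204 in WT, and Smad3 over Smad2 was 7.32 to 8.6 in cKO and 7.98 to 8.33 in WT. Tgfb3 over Tgfb1 was 2.48 to 2.83 in cKO and 2.65 to 2.68 in WT, and Amhr2 over Amh was 43.4 to 66.8 in cKO and 34.5 to 44.6 in WT. Id1 over Id2 was 1.07 to 1.42 in cKO and 0.781 to 1.08 in WT. Acvr2a over Acvr2b was 1.64 to 2.44 in cKO and 1.63 to 2.09 in WT, and Fst over Fstl3 was 23.9 to 39.7 in cKO and 19.2 to 24.0 in WT. The last, Inhbb over Inhba, is given above.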
